A study of Zea mays with 4 samples.

Results

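Pseudouridine (Ψ) was found at 66 positions in the untranslated regions (UTRs) of maize transcripts, where each was the only listed site of its gene. The whole list of Ψ sites held 388 positions. Of the 66, 53 were annotated in a 3′ UTR and 13 in a 5′ UTR. They were selected from the annotated region and the number of listed sites per gene, so that neither the surrounding bases nor the depth or the Ψ level took part in the selection. The list held 68 UTR sites in all, and 2 of them, in the 3′ UTRs of LOC100273196 and LOC100127014, were set aside because their genes had other sites. The 267 coding sites of genes with a single listed site served for comparison.

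Polyadenylated RNA was taken from shoots of B73, an inbred line of maize (Zea mays) from which the reference genome was assembled. Ψ was mapped by bisulfite-induced deletion sequencing (BID-seq) with 2 bisulfite-treated libraries and 2 input libraries without bisulfite. All site values are sums over the replicates, so no value of a single library, no replicate SD and no reads of the input were analysed here. Gene expression could not be assigned to libraries, which means that neither the tissue label nor the transcript level of the genes was checked.

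Ψ is an isomer of uridine whose base is joined to the sugar through a carbon atom. It is made from uridine within the RNA chain by pseudouridine synthases, some guided by H/ACA RNAs and others reading sequence and structure directly, such as the TruB-type enzymes that modify the T-arm of tRNAs. The 5′ UTR is the stretch that the initiating ribosome scans, and the 3′ UTR carries binding sites for proteins and small RNAs and the signals for polyadenylation. In BID-seq the bisulfite adduct of Ψ makes the reverse transcriptase skip the base, and the reads then carry a gap. The depth is the number of reads at the site, the gap ratio is the percentage of them with a gap, and the Ψ fraction is the authors' calibrated conversion of the gap ratio into the percentage of modified transcripts.

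The windows of the sites were examined first, since several share a structure or a sequence that the selection did not use. Each window holds 21 bases of the transcript strand, with the modified U (written T) as base 11. Bases were read from the deposited genomic windows. A deposited transcript window differs from the genomic one at 5 of the UTR sites. These are LOC100284899, LOC100282876, LOC100283494, LOC100284372 and LOC100283583. Of the UTR sites, 4 lay at the second base of a 4-base loop closed by 6 stacked pairs. They are printed with the paired bases in capitals and the loop between them.
LOC100282817 (3′ UTR): tgaTGGAAGgtgaCTTCCAgt
LOC542310 (3′ UTR): ccaCCGTCCgtggGGACGGag
LOC732789 (3′ UTR): tgtGTCCGGgtgaCCGGACct
LOC100274890 (5′ UTR): cctGCAAGGgtgaCCTTGCtt

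All 4 sites are in a GΨG context, and in 3 of the 4 windows the loop reads gtga, a member of the GNRA family of stable RNA loops. The windows, given in coordinates of Zm-B73-REFERENCE-NAM-5.0, are chr2:140546500-140546520 on the plus strand, chr1:264527941-264527961 on the minus strand, chr9:111880628-111880648 on the minus strand and chr4:245908953-245908973 on the plus strand. LOC542310 carries the synonym GB1, the β subunit of a heterotrimeric G protein, and its site lies outside the gene limits of the RefSeq table. LOC732789 carries the synonym VTE2-1, homogentisate phytyltransferase, which acts in tocopherol synthesis. The Ψ fractions were low, with 7.56% in LOC100282817 (42 of 1329 reads gapped), 14.8% in LOC542310 (15 of 215), 20.6% in LOC732789 (30 of 329) and 10.4% in LOC100274890 (34 of 774). This loop layout was noticed in the data and was not tested. It occurred at 3 of 53 3′ UTR sites (5.66%), at 1 of 13 5′ UTR sites (7.69%) and at 6 of 267 coding sites (2.25%). Among all 388 sites it occurred 11 times, more often than any of the other layouts among the 42 combinations of loop length and site position that were counted with 6 pairs, and 10 of the 11 loops read gtga or gtgg.

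A second set of 5 windows shows the sequence GTTCNA with the site at its second T, as in the T-arm of tRNAs. It is printed in capitals.
LOC100383138 (3′ UTR): ttgggtggGTTCAAatcccaa
LOC118475621 (3′ UTR): agtcgcggGTTCGAaccccgt
LOC118474839 (3′ UTR): tggtatagGTTCAAtcctatt
LOC103632000 (3′ UTR): ctgggttgGTTCCAttccatc
LOC100193560 (5′ UTR): cgaatcggGTTCAAtcccgtc

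In each of these windows at least 4 stacked pairs also close a loop around the site. The windows of LOC100383138, LOC103632000 and LOC100193560 are chr1:200086631-200086651, chr7:9378127-9378147 and chr5:181455153-181455173, all on the minus strand, and the remaining 2 lie on unplaced scaffolds. The Ψ fraction was 70.8% in LOC100383138 (11 of 30 reads gapped), 98.4% in LOC118475621 (9 of 11) and 100% in LOC118474839 (9 of 9). In LOC103632000 it was 31.5% (21 of 219 reads). In LOC100193560 it was 51.0% (20 of 96 reads), the highest fraction of any 5′ UTR site. The 3 windows with the highest fractions thus had the fewest reads. The pattern occurred at 4 of 53 3′ UTR sites (7.55%), at 1 of 13 5′ UTR sites (7.69%) and at 7 of 267 coding sites (2.62%), and at 13 of all 388 sites (3.35%). These shares were not tested.

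A further set consists of a single window that was listed for 6 different genes, all in the 3′ UTR. The site and its neighbours are in capitals.
LOC118473345 and 5 other genes: gaaggagaaGTGtgataagct

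For LOC118473345 the window is chr9:77790079-77790099 on the minus strand, and for LOC118473676, LOC118474952, LOC118474953, LOC118475472 and LOC118475829 it lies on unplaced scaffolds. The copies had 13, 24, 18, 21, 19 and 24 reads, of which 13, 16, 11, 17, 18 and 17 were gapped, in the order in which the genes were just named. Together 92 of 119 reads were gapped, or 77.3% (Wilson 95% interval 69.0 to 83.9%). The gap ratios ran from 61.1% (38.6 to 79.7%) in LOC118474952 to 100% (77.2 to 100%) in LOC118473345, and the fractions from 88.8% to 100%. The windows do not tell the copies apart, so the 6 entries are not independent sites. The interval of the summed reads takes these reads as independent, and how reads were assigned among the copies was not analysed. No stem of 4 pairs was found in this window.

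The 53 3′ UTR sites varied widely. The depth ran from 9 to 6399 reads with a median of 337, and 2065 of 38924 reads were gapped. Gap ratios ran from 2.27% to 100% around a median of 7.76%. Fractions ran from 4.69% to 100% around a median of 28.3%, and their mean was 39.9% ± 30.9 (SD over 53 sites). A fraction under 20% was found at 18 of the 53 sites (34.0%), where the percentage over the whole list is 36.6. A fraction over 50% was found at 15 sites (28.3%), where the percentage over the whole list is 12.1.

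The sites over 50% were mostly those with few reads. Of the 15, 13 had fewer than 50 reads, and no 3′ UTR site below this depth had a fraction under 67.4%. These 13 sites had a median of 92.2%, and the 40 deeper sites one of 22.3%. Of the 13, 9 lay in genes whose symbol begins with LOC118, of which 8 are on unplaced scaffolds. All 9 LOC118 sites were over 50%, with fractions from 67.4% to 100% and 9 to 44 reads. Outside these genes the shallow sites were those of LOC100383138, printed above, LOC100193871 (6 of 25 reads, 75.5%), LOC100193865 (4 of 9 reads, 85.7%) and LOC100274986 (25 of 40 reads, 89.3%).

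At higher depth the median fractions were lower. The 7 sites with at least 50 and fewer than 200 reads had a median fraction of 32.1%. This median was 25.3% for the next 14 sites, with fewer than 800 reads, and 15.7% for the 19 deepest sites. The coding sites followed the same order, with medians of 35.6%, 24.3% and 17.0%. Across the 53 sites Spearman's rho between depth and gap ratio was -0.92. It is given as a description only, since the depth is also the denominator of the gap ratio and every site had passed the authors' P value-based filter. The part of the filter in this relation was not tested.

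**Figure D1:**
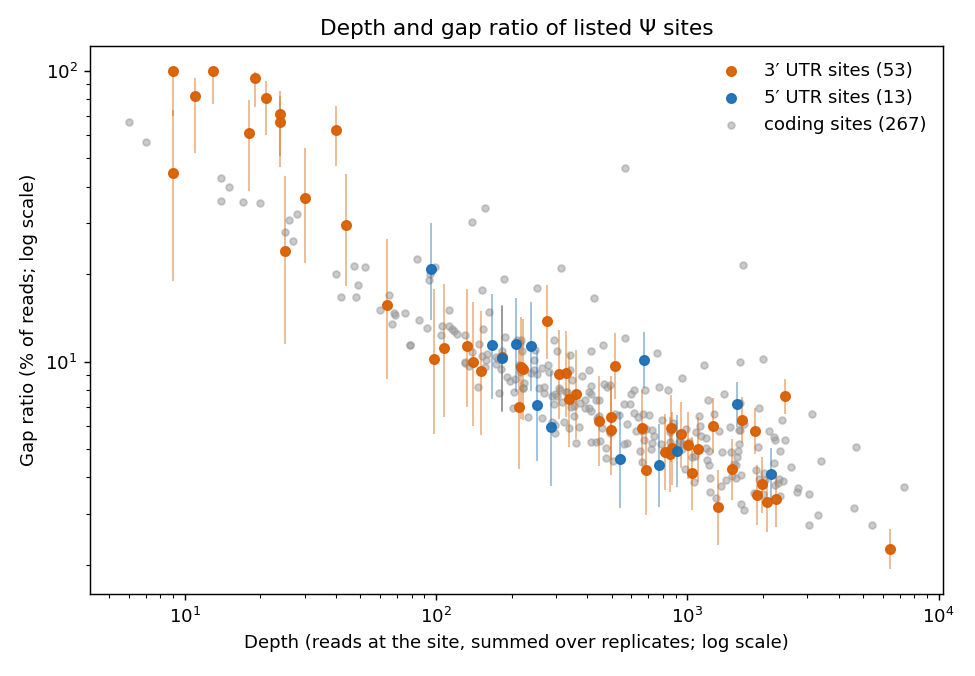
Gap ratio (percentage of reads, log scale) against depth (reads summed over replicates, log scale) for each 3′ UTR, 5′ UTR and coding site of genes with a single listed site. Points are sites and vertical lines are Wilson 95% intervals of the UTR sites. The 3′ UTR sites reach from 9 reads with a gap ratio of 100% to 6399 reads with 2.27%, and no 5′ UTR site has fewer than 96 reads.

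The most deeply covered 3′ UTR site was that of LOC100272715 (Zm00001eb043260), in the window chr1:227878376-227878396 on the plus strand, with 145 of 6399 reads gapped. Its gap ratio of 2.27% (Wilson 95% interval 1.93 to 2.66%) was the lowest of all members and corresponded to a fraction of 7.62%. LOC100283996 followed with 186 of 2446 reads gapped, a fraction of 29.5%. Its gap ratio of 7.60% (6.62 to 8.72%) stood above those of the others among the 6 deepest sites, whose intervals did not reach it. LOC100217145 had 76 of 2262 reads gapped, and its fraction of 4.69% was the lowest of the 66. LOC100282043 (68 of 2076 reads, 9.91%), LOC103646024 (75 of 1985, 16.2%) and LOC100280410 (66 of 1900, 6.45%) completed the 6 deepest sites. Of these 6 sites 5 were below 20%. Besides LOC100282817 above, LOC100273230 was also among the 6 lowest, with 64 of 1504 reads gapped and a fraction of 13%.

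Only 2 of the 3′ UTR sites with at least 50 reads exceeded 50%. They are shown because both sit at the end of a short run of U in the genomic window. The site and its neighbours are in capitals.
LOC100193902 (3′ UTR): gagttgagtTTCcaggcgcct
LOC100282876 (3′ UTR): cgatgaggtTTCccttataat

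LOC100193902 (chr10:129875826-129875846, minus strand) had 21 of 222 reads gapped and a fraction of 56.8%. LOC100282876 (chr8:167872796-167872816, minus strand) had 28 of 308 reads gapped and a fraction of 55.7%. Its deposited transcript window places the site at the preceding T of the run, so its UΨC context is not settled. Both gap ratios were near 9%, namely 9.46% (6.27 to 14%) and 9.09% (6.36 to 12.8%). A gap ratio of 9.59% in LOC103632000, also a UΨC site, was given a fraction of 31.5%. The quotient of fraction and gap ratio ranged from 1 to 6.13 over the 3′ UTR sites (median 3.08) and was largest for LOC100282876. LOC103646418 was next, with 38 of 276 reads gapped and 48.2%. It was followed by LOC100283412 (10 of 64 reads, 41.8%), LOC100279552 (12 of 108, 38.9%) and LOC100273003 (10 of 98, 32.4%).

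The 13 5′ UTR sites included none with fewer than 50 reads. The depth ran from 96 to 2161 reads with a median of 286, and 518 of 8077 reads were gapped. Gap ratios ran from 4.12% to 20.8% (median 7.13%), and fractions from 10.4% to 51.0%, with a median of 27.9%. The mean was 28.0% ± 12.3 (SD over 13 sites), and the 40 3′ UTR sites with at least 50 reads had a similar spread, with a mean of 23.9% ± 12.3 (SD over sites). Below 20% were 4 of the 13 sites (30.8%), where the percentage over the whole list is 36.6. A fraction over 50% was found at 1 site (7.69%), where the percentage over the whole list is 12.1. Both shares were near those of the whole list. Over all depths the median fractions were close, at 28.3% for 3′ UTR sites and 27.9% for 5′ UTR sites. The highest fractions belonged to the 13 3′ UTR sites with fewer than 50 reads. Without these shallow sites the 3′ UTR median was 22.3%, below that of the 5′ UTR sites. Then 2 of 40 3′ UTR sites and 1 of 13 5′ UTR sites exceeded 50%, with maxima of 56.8% and 51.0%. The difference between these medians was not tested.

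Among the 5′ UTR sites, the deepest was that of LOC100282137 (position 176401684 on chromosome 3), with 89 of 2161 reads gapped and a fraction of 15.4%. It was followed by LOC542445 (synonym ADF3), which encodes an actin-depolymerizing factor, a protein that severs actin filaments. Here 113 of 1584 reads were gapped, or 7.13% (Wilson 95% interval 5.97 to 8.51%), and the fraction was 32.8%. This gap ratio lay above that of LOC100282137, 4.12% (3.36 to 5.04%), without overlap of the intervals. The windows of LOC542445 (Zm00001eb062600) and LOC100285116 (Zm00001eb175500) are shown. The first lies close to a splice junction. The second is the only genomic window of the UTR sites with an A after the Ψ.
LOC542445 (5′ UTR): gcgcgcgagCTCgcccgagat
LOC100285116 (5′ UTR): agctagcagCTAgctgagccg

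These windows are chr1:300195616-300195636 and chr4:49282964-49282984, both on the plus strand. LOC100285116 carries the synonym NAC75, a transcription factor of the plant-specific NAC family, and had 17 of 286 reads gapped. The gap ratio of 5.94% (3.74 to 9.31%) corresponded to a fraction of 41.3%, and the quotient of both, 6.96, was the highest among the 5′ UTR sites. LOC100279919 (position 216727672 on chromosome 3) had a similar fraction of 42.4% with 19 of 167 reads gapped.

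A further 6 of the 5′ UTR sites were between 14.5% and 30.7%. In LOC103637980 (position 14584678 on chromosome 9) 25 of 542 reads were gapped, a fraction of 14.5%. LOC100282369 (position 150817263 on chromosome 10) reached 27.0% with 19 of 184 reads. A pair of sites on chromosome 6 was alike in fraction, with 27.6% in LOC100501929 (position 157033665, 68 of 670 reads) and 27.9% in LOC103630584 (position 169590395, 24 of 209 reads). For LOC103626062 (position 19978981 on chromosome 5) the fraction was 30.0% with 18 of 253 reads gapped, and for LOC100283583 (position 81290514 on chromosome 1) it was 30.7% with 27 of 238 reads gapped. Apart from LOC103637980 these sites lay between 27.0% and 30.7%.

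**Figure D2:**
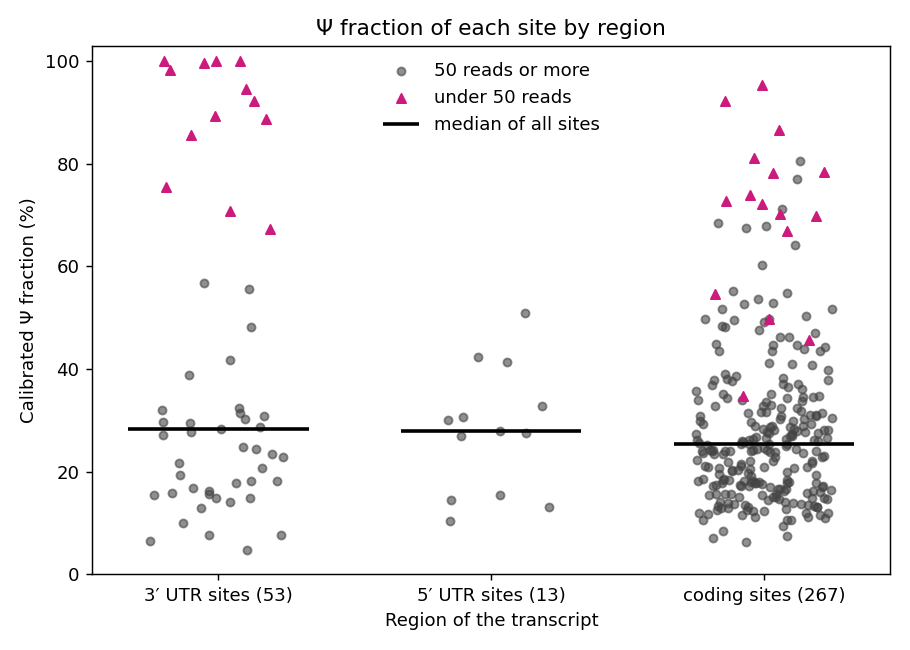
Calibrated Ψ fraction (%) of each site in the 3′ UTR, the 5′ UTR and the coding sequence, for genes with a single listed site. Circles are sites with at least 50 reads, triangles are sites with fewer than 50 reads and bars are medians over all sites of the region. The medians are 28.3%, 27.9% and 25.4%, and 13 of the 15 3′ UTR sites over 50% are triangles.

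To ask which features set UTR sites apart from coding sites, 12 features were compared by Fisher's exact test (two-sided), with Benjamini-Hochberg adjusted p-values over all 24 tests of both UTRs. Sites are not replicates of a condition, so these tests describe the listed sites only. Against coding sites, 4 features of the 3′ UTR sites passed an adjusted p of 0.05, and none of the 5′ UTR sites did (smallest unadjusted p 0.250, adjusted 0.667).

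The base composition differed between 3′ UTR and coding sites. At least 11 of the 20 flanking bases were G or C at 27 of 53 3′ UTR sites (50.9%, Wilson 95% interval 37.9 to 63.9%), against 236 of 267 coding sites (88.4%, 84.0 to 91.7%), with an adjusted p of 1.17e-07. The 53 include the copies of the repeated window, which are not independent sites. With repeated windows set aside the counts were 27 of 47 and 219 of 250 (-30.2 percentage points, Fisher's exact test, adjusted p 7.56e-05). In the 5′ UTR the share was 12 of 13 (92.3%, 66.7 to 98.6%), close to that of the coding sites. The flanks of 3′ UTR sites had a median GC content of 55% and those of 5′ UTR sites 70%, against 65% in the coding sequence. The composition of all 3′ UTRs and coding sequences was not analysed here, so this describes the sites and not a preference.

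The distance to a splice junction differed as well. A junction 50 bases away or nearer was listed for 1 of 53 3′ UTR sites (1.89%, 0.334 to 9.94%), against 81 of 267 coding sites (30.3%, 25.1 to 36.1%; adjusted p 1.50e-05). In the 5′ UTR it was listed for 2 of 13 sites (15.4%). The difference between 3′ UTR and coding sites was -28.5 percentage points, and it shrank to -12.3 (adjusted p 0.0525) when the limit was 20 bases. The 53 include 15 sites without a listed junction. With such sites set aside, chosen after seeing the data, the counts were 1 of 38 and 81 of 245 (-30.4 percentage points). All junctions listed for 3′ UTR sites lay upstream. The exon layout of the regions was not analysed, so this describes the annotated sites and not a preference.

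Depth and fraction differed together. Fewer than 50 reads were found at 13 of 53 3′ UTR sites (24.5%, 14.9 to 37.6%), against 16 of 267 coding sites (5.99%, 3.72 to 9.51%; adjusted p 0.00121). A fraction over 50% was found at 15 of 53 3′ UTR sites (28.3%, 18.0 to 41.6%), against 29 of 267 coding sites (10.9%, 7.67 to 15.2%; adjusted p 0.0110). Among sites with at least 50 reads only 2 of the 3′ UTR sites remained over 50%, and the difference turned to -1.37 percentage points (adjusted p 1). With LOC118 genes set aside, which was chosen after seeing the data, the difference was 3.79 percentage points for the fraction and 4.17 for the depth (adjusted p 0.790 for each). With repeated windows set aside it was 8.75 for the fraction (adjusted p 0.646) and 8.49 for the depth (adjusted p 0.408). No 5′ UTR site had fewer than 50 reads (Wilson upper limit 22.8%).

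With all sites of genes with a single listed site, no base next to the Ψ passed an adjusted p of 0.05 between regions. In the 3′ UTR GΨG was the most frequent 3-base motif, with 17 of 53 sites (32.1%), followed by CΨC and UΨG with 10 sites each, UΨC with 9, GΨC with 4 and AΨC with 3. The 5′ UTR held 4 GΨG, 3 CΨC, 3 UΨC, 2 UΨG sites and 1 CΨA site. Among coding sites CΨC led with 33.7%, and GΨG had 21.7%. However, 6 of the 17 GΨG entries in the 3′ UTR are the copies of the repeated window, which are not independent sites. With repeated windows set aside, a G stood before the Ψ at 15 of 47 3′ UTR sites and 75 of 250 coding sites. The difference for a G before the Ψ thereby fell from 9.66 to 1.91 percentage points. A C before the Ψ was found at 10 of 53 3′ UTR sites (18.9%), against 99 of 267 coding sites (37.1%), a difference that did not pass the threshold after adjustment (p 0.0109, adjusted p 0.0525). The Ψ was preceded by a U at 19 3′ UTR sites and 5 5′ UTR sites. Where several U stand in a row the skipped one is not distinguishable, so the modified base of these sites is known only to within the run. An A after the Ψ was not found in the genomic windows of the 3′ UTR (0 of 53, Wilson upper limit 6.76%). The deposited transcript window of LOC100284372 does have an A after the site, where its genomic window has a C.

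**Figure D3:**
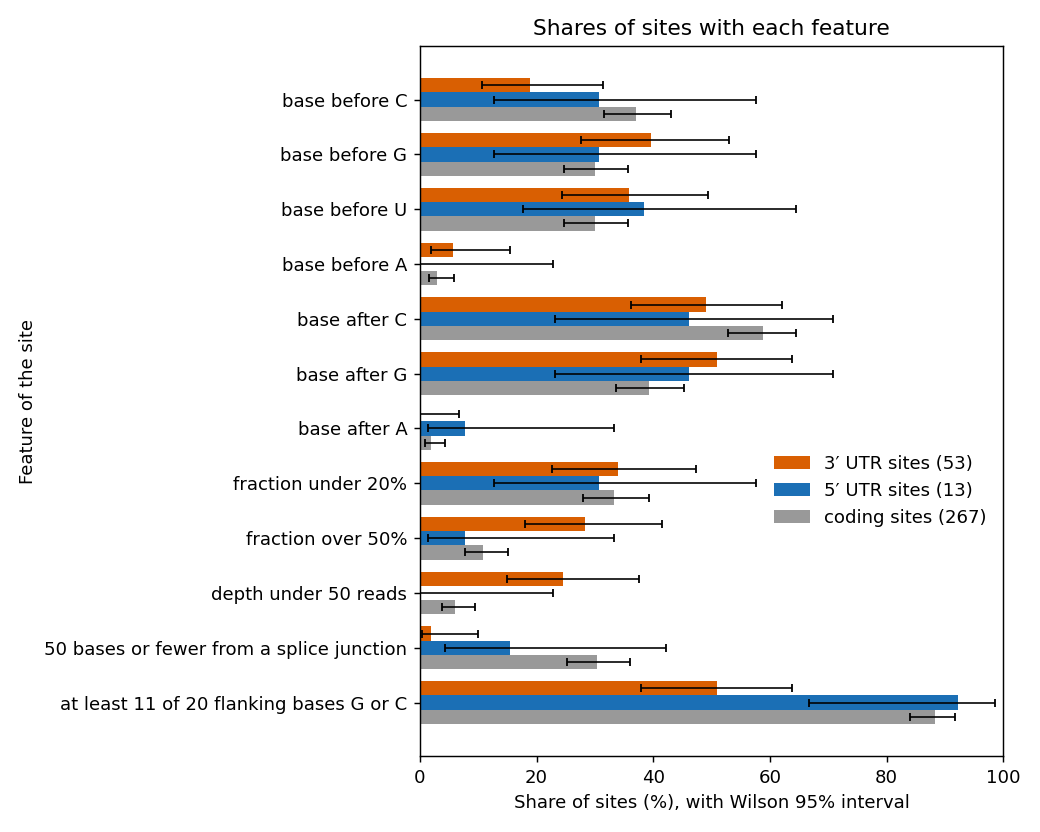
Share of 3′ UTR, 5′ UTR and coding sites (%) with each of 12 features, for genes with a single listed site. Bars are shares and error bars are Wilson 95% intervals. The 3′ UTR and coding intervals do not overlap for flanking G or C (50.9% against 88.4%) and for a junction within 50 bases (1.89% against 30.3%). The same holds for a depth under 50 reads (24.5% against 5.99%), a fraction over 50% (28.3% against 10.9%) and a C before the Ψ (18.9% against 37.1%). The intervals of the 13 5′ UTR sites are wide and overlap those of the coding sites.

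Within the motifs the 3′ UTR fractions overlapped widely. The 17 GΨG sites had a median of 27.8% and ran from 6.45% to 100%, and 7 of them were over 50%, of which 6 are copies of the repeated window. The 9 UΨC sites had a median of 55.7%, with 5 sites over 50%, of which 3 are the shallow T-arm windows. The 6 UΨC sites with at least 50 reads had a median of 35.2%. CΨC sites had a median of 26.6% and UΨG sites one of 22.3%. The 4 GΨC sites were all deep (1263 reads or more), with fractions from 7.62% to 29.5%. AΨC was represented by LOC103638138 (29 of 686 reads, 19.4%) and by the shallow sites of LOC100193871 and LOC100193865.

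Longer elements were also read from the windows. The letters TCTG starting at the site occurred in 9 of 53 3′ UTR windows (17.0%), against 53 of 267 coding windows (19.9%), and TCGG in 8 (15.1%), against 25 (9.36%). Neither occurred among the 13 5′ UTR windows (Wilson upper limit 22.8% for each). The letters TGTAG from the site on occurred in 4 of 53 3′ UTR windows (7.55%), against 8 of 267 coding windows (3.0%) and 12 of all 388 (3.09%). The 4 windows are printed with these letters in capitals.
LOC100280410 (3′ UTR): ctataaagggTGTAGagattg
LOC100281836 (3′ UTR): gggtattggtTGTAGatgctc
LOC100283494 (3′ UTR): agttgggtttTGTAGagttac
LOC100274307 (3′ UTR): gtagtttggtTGTAGaatgct

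They lie at chr4:86381221-86381241, chr5:92663714-92663734, chr4:201743234-201743254 and chr1:7288567-7288587, all on the plus strand. In all 4 the letters TGTAG are followed by A, and at least 4 stacked pairs close a loop around the site. For LOC100283494 the deposited transcript window places the site at the T before these letters. The fractions were 6.45% (66 of 1900 reads), 15.4% (41 of 854 reads), 22.8% (28 of 361 reads) and 32.1% (15 of 133 reads), in the order of the lines. In TGTAG as counted here the site is the first T. The planned pattern for Pus7-type synthases was TNTA followed by A or G, with the site at its second T. It was found at 0 of 53 3′ UTR sites, 0 of 13 5′ UTR sites and 1 of all 388 sites. These counts were made on the printed strand only and were not tested. AATAAA, the canonical polyadenylation signal of animals, occurred in no window of the list.

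A stem of 4 or more stacked pairs, of Watson-Crick or G-U type, closing a loop of 3 to 9 bases around the site was found at 34 of 53 3′ UTR sites (64.2%, Wilson 95% interval 50.7 to 75.7%) and at 9 of 13 5′ UTR sites (69.2%, 42.4 to 87.3%). The share among coding sites was 143 of 267 (53.6%, 47.6 to 59.4%). Neither UTR was separated from the coding sites (Fisher's exact test, unadjusted p 0.175 and 0.394). The longest stem of all UTR sites belongs to LOC118473846, and LOC103638152 is 1 of 3 sites with the next longest. Both are shown with the paired bases in capitals.
LOC118473846 (3′ UTR): cTAAGCCCTctcGGGGCTTGc
LOC103638152 (3′ UTR): GGGGGCGctttgcCGCCCCCa

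LOC118473846, on an unplaced scaffold, has 8 pairs around its CΨC and a fraction of 67.4% (13 of 44 reads). LOC103638152 (chr9:26922889-26922909, plus strand) has 7 pairs around its UΨG and a fraction of 30.9% (14 of 141 reads). With 6 pairs or more, 8 of 53 3′ UTR sites (15.1%) were left, against 25 of 267 coding sites (9.36%; Fisher's exact test, p 0.218).

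The position in the transcript was then examined. Outside LOC118 genes, 42 3′ UTR sites lay within the gene limits of the RefSeq table, between 43 and 514 bases from the gene end with a median of 204.5, and 39 of them were 400 bases or fewer from it. The nearest to the end was LOC100277236, with 108 of 1869 reads gapped and a fraction of 17.8%. At the 9 LOC118 loci the distance to the gene end was 210 to 33767 bases, and in 4 of the 6 copies of the repeated window the site was listed between transcript positions 24845 and 24862. In 2 of the 9, LOC118473345 (210 bases) and LOC118475621 (315 bases), the distance was within the range of the other genes. Whether the LOC118 models represent mRNA was not tested. The 5′ UTR sites lay 70 to 1127 bases from the transcript start, with a median of 172.

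**Figure D4:**
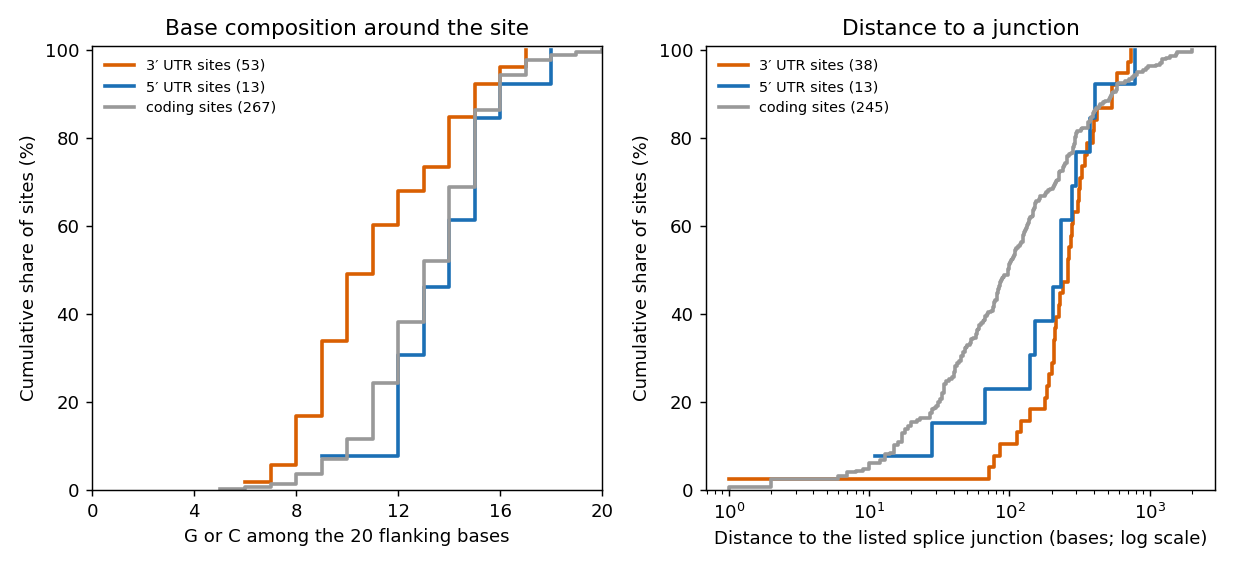
Left, cumulative share of sites (%) by the number of G or C among the 20 flanking bases. Right, cumulative share of sites (%) by the distance to the listed splice junction (bases, log scale), without sites whose listed distance is that to the gene end. Lines are 3′ UTR, 5′ UTR and coding sites of genes with a single listed site, with their number in brackets. The 3′ UTR line lies left of the others for composition (median 55% G or C against 65% in coding sites) and, apart from 1 site, right of them at short distances (median 260 bases against 97).

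Of the 53 3′ UTR sites, 38 lay downstream of a splice junction, at 1 to 731 bases with a median of 260. For the other 15 the listed distance equalled the distance to the gene end, so no junction was given. The 245 coding sites with a junction had a median distance of 97 bases. The exception at short distance was LOC100284899 (Zm00001eb416750, chr10:85078697-85078717, plus strand), whose site is 1 base from the junction. Its genomic and transcript windows differ before the site, and both are shown with the site and its neighbours in capitals.
LOC100284899 (genomic): ttgtatcagCTCtgcaggcat
LOC100284899 (transcript): cgtgacgagCTCtgcaggcat

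The CΨC motif is the same in both windows. Here 52 of 1009 reads were gapped, or 5.15% (Wilson 95% interval 3.95 to 6.70%), with a fraction of 15.9%. The site of LOC100283837 lies 34931 bases away on the same strand of chromosome 10, with 44 of 873 reads gapped and a fraction of 14.9%. In the 5′ UTR, 11 of 13 sites had the nearest listed junction downstream, at 11 to 787 bases. The closest was in ADF3 (LOC542445), 11 bases before a junction, followed by LOC103626062, 28 bases after one.

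Named products are given for 9 of the 66 genes, from synonyms in the RefSeq table. Their fractions ran from 14.1% to 41.3%. Beside ADF3 and NAC75 in the 5′ UTR and VTE2-1 and GB1 in the 3′ UTR, described above, these were 5 genes with 3′ UTR sites. LOC541649 (tif4A2), the translation initiation factor eIF-4A, had 76 of 1263 reads gapped and a fraction of 24.3%. LOC100193526 (RH3A), a DEAD-box RNA helicase, had 50 of 516 reads gapped and a fraction of 27.8%. LOC100285240 (CSD4), a copper/zinc superoxide dismutase that removes superoxide, had 51 of 864 reads gapped and a fraction of 28.3%. These values all lay in the middle of the 3′ UTR range. LOC100283339 (grx1), a glutaredoxin that reduces disulfides, was lower, with 43 of 1041 reads gapped and a fraction of 14.1%. LOC100279552 (HB131), a homeobox protein, was higher, with 12 of 108 reads gapped and a fraction of 38.9%, and its site ends a run of U. None of the 9 exceeded 50%, and with 1 site per gene and no replicates no class of products was compared.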

How the data were processed

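BID-seq libraries of maize shoots were analysed from the deposited list of sites. The authors ran the reads through the pseudoU-BIDseq pipeline with Zm-B73-REFERENCE-NAM-5.0 as the genome, summed the replicates and filtered the sites by P value. The aligner version is not given in the sources used here. The deposited depth is a count of reads per site. The deposited gap ratio is the ratio of gapped to all reads, and the deposited Ψ fraction is its calibrated conversion, both shown as percentages. The deposited pass score of 1 or 2 is not defined and was used only to split the list. Transcript position and distance to a junction are other deposited values, in bases.

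The product of depth and gap ratio deviated from whole numbers by at most 0.00244 and was taken as the gapped reads. Wilson 95% intervals cover counting error only, since amplified reads are not independent molecules. Library depth is unknown, because values are sums. The 2 value columns of the deposited expression table could not be assigned to a library and were not used. UTR sites were compared with coding sites by Fisher's exact test and Benjamini-Hochberg adjustment over 24 tests (Python 3.11.15, pandas 2.3.3, numpy 2.4.6, scipy 1.17.1), which were tested on simulated data. Splice distances equal to the distance to the gene end are no junctions. Windows were read from the deposited list, and gene limits and synonyms came from RefSeq, which held 65 of the 66 genes. Ensembl-type identifiers were found for 52. The members, features and lists were chosen with earlier results of these data known. Sites named were every 5′ UTR site, except 1 that is not reported here, and, in the 3′ UTR, repeated and T-arm windows, the 6 with the highest fraction at 50 or more reads, the 6 lowest, the 6 deepest and those 10 bases or fewer from a junction. Lists of gene functions were not used, since no gene descriptions were at hand. Sites printed for motifs, stems or synonyms, the shallow sites named, LOC100277236, LOC103638138 and LOC100283837 were chosen after their values were seen. Alternatives covered depth minimums, repeated and T-arm windows, all genes, pass score, gap ratio, splice limits and the flank length.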

Additional observations from a re-analysis of the deposited data

How the results depend on the processing

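The 3′ UTR and coding differences in flanking G or C kept their direction and their side of the threshold under every alternative run. With at least 50 reads the difference (UTR minus coding, in percentage points) for a fraction over 50% turned to -1.37 for 3′ UTR sites and 1.32 for 5′ UTR sites, and that for an A before the Ψ to -0.687. With at least 100 reads these 3′ UTR values were 0.178 and -0.758. With repeated windows set aside the 3′ UTR difference was 8.75 for a fraction over 50% (adjusted p 0.646) and 8.49 for a depth under 50 reads (adjusted p 0.408), with T-arm windows also set aside 4.08 and 3.13 (adjusted p 0.917 for each), and without LOC118 genes, an alternative chosen after seeing the data, 3.79 and 4.17 (adjusted p 0.790 for each). With all genes the difference for a fraction under 20% was -0.462 in the 3′ UTR, and that for a G before the Ψ was -0.0244 in the 5′ UTR. When gap ratios replaced fractions, the differences under 20% were -16.3 (adjusted p 0.00703) and 0.547. With a junction limit of 20 bases the 3′ UTR difference was -12.3 (adjusted p 0.0525).

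Sites with a pass score of 2 moved most, since this left 16 3′ UTR sites, 6 of them copies of a single window. The 3′ UTR differences were -33.8 for a C before the Ψ (adjusted p 0.0214), 42.6 for a G before it (adjusted p 0.0214), -4.73 for a U, -4.05 for an A, -34.5 for a C after it and 34.5 for a G after it (adjusted p 0.0498 for each), -22.1 for a fraction under 20% and -24.3 for a junction within 50 bases (adjusted p 0.104). The median 3′ UTR fraction was 89.0% and the median gap ratio 61.8%. In the 5′ UTR, with 4 sites left, the differences were -4.73 for a U before the Ψ, 10.1 for a fraction over 50%, 0.676 for the junction and -20.9 for flanking G or C. Of 150 recomputed differences 121 kept their direction and their side of the threshold and 3 became 0, and of 26 under alternatives chosen after seeing the data 24 kept both. Where no value shows the cause, the cause was not tested. No paired analysis was possible because the site values are sums over replicates. The treated against input comparison, the replicate block, the leave-one-out fits and the expression alternatives were not run for the same reason or because expression could not be tied to libraries. Among the 15 3′ UTR sites with a fraction over 50%, 13 had fewer than 50 reads, and 9 of these 13 were also LOC118 sites. The parts of depth and gene group in these fractions were not tested.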
